A study of Zea mays with 2 samples.

Results

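Levels of 4 genes of DNA replication were compared in maize (Zea mays) endosperm between the defective kernel mutant dek44 and wild type. The genes were pcna1 (GRMZM2G030523), pcna2 (GRMZM2G108712), RNRS2 (GRMZM2G155546), which encodes a small subunit of ribonucleotide reductase, and mcm6 (GRMZM2G021069), 4 of the 41406 gene models in the deposited files. They were listed by name, with their values in this comparison already known, so their own levels and ratios are given as a description. The dek44 library came from mutant endosperm and the wild-type library from wild-type endosperm, both from kernels collected 15 days after pollination (15 DAP). Dek44 is known to encode a protein of the mitochondrial ribosome. The labels do not state the allele, the genetic background or how many plants went into a library. The labels list 1 library per genotype although the series text speaks of triplicate profiling, so no difference can be set against a spread between replicates, and each describes these libraries only.

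Values are RPKM, reads scaled by gene length and by library size, as the authors deposited them, so levels can be set beside each other between genes. The library totals recovered from the steps in these values were 22612657 reads in the dek44 library and 20861135 in that of wild type. A log2 ratio is that of dek44 RPKM plus 1 over wild-type RPKM plus 1, so the change of a low gene is understated, and a fold is the plain quotient of RPKM, dek44 over wild type. A gene counts as expressed where either library reaches 1 RPKM. All 4 genes were among the 30136 expressed. Intervals are 95% and exact, and they cover counting error only. They use the smallest whole reads that give the RPKM of a gene, of which the true reads may be a multiple.

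During S phase the nuclear genome is copied once. PCNA (proliferating cell nuclear antigen) forms a ring around DNA that holds the polymerases to the template, the MCM complex unwinds the double helix ahead of them, and ribonucleotide reductase turns ribonucleotides into the deoxyribonucleotides that are built in. In cereal endosperm, cell division gives way during grain filling to endoreduplication, in which DNA is copied without division, so S-phase genes can be active in cells that no longer divide.

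All 4 genes were higher in the dek44 library than in wild type, by 6.54-fold for mcm6 up to 181-fold for RNRS2. Together they held 0.0232% of summed RPKM in dek44 and 0.00182% in wild type, and their summed level was 12.2-fold higher. Of all expressed genes 31.6% were higher by 2-fold or more on the log2 scale above, and 3.7% lower by as much. At 4-fold, which the log2 ratios of all 4 genes also passed, the shares were 6.92% higher and 0.863% lower. The 4 genes were chosen with this contrast in view, so nothing is read from 4 of 4 passing. Expressed genes as a whole had a median log2 ratio of 0.62, and once this was subtracted 12.3% were higher by 2-fold or more and 10.9% lower. On that centred scale the log2 ratios of the 4 genes remained between 1.74 and 4.72.

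The clamp gene pcna2 was the most abundant of the 4 in both libraries, at 139 RPKM in dek44 (interval 134 to 145) and 15.2 RPKM in wild type (13.4 to 17.3). Its fold was 9.13 (8.01 to 10.4), with a log2 ratio of 3.11. The other clamp gene, pcna1, had 96.7 RPKM in dek44 (90.4 to 103) and 6.67 RPKM in wild type (5.03 to 8.69). Its fold was 14.5 (11.03 to 19.4), with a log2 ratio of 3.67. The intervals of the levels did not overlap between the libraries for either gene. How many expressed genes share this was not counted, so nothing is read from it. The fold intervals did not overlap between the genes either, with pcna1 the higher. pcna1 made up 41.0% of the summed level of both clamp genes in dek44 and 30.4% in wild type. The labels do not say how reads that match both genes were counted, so this split is less certain than the sum.

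RNRS2 had the lowest wild-type level and the highest fold of the 4 genes. It was at 51.1 RPKM in dek44 (47.04 to 55.4) and 0.283 RPKM in wild type (0.0583 to 0.826). The wild-type value corresponds to as few as 3 reads and the dek44 value to 588. The fold of 181 thus has a wide interval, 61.6 to 879, and the log2 ratio of 5.34 depends on the added 1. In the order of levels within dek44 RNRS2 stood above mcm6, 2.59-fold, whereas in wild type mcm6 stood above RNRS2, 10.7-fold.

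The helicase subunit gene mcm6 had 19.7 RPKM in dek44 (18.6 to 20.9) and 3.02 RPKM in wild type (2.57 to 3.53). Its fold of 6.54 (5.53 to 7.78) was the smallest of the 4, with a log2 ratio of 2.37. The order of levels in dek44 was pcna2, pcna1, RNRS2 and mcm6, and in wild type pcna2, pcna1, mcm6 and RNRS2. No neighbours in either order had overlapping counting intervals.

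**Figure D1:**
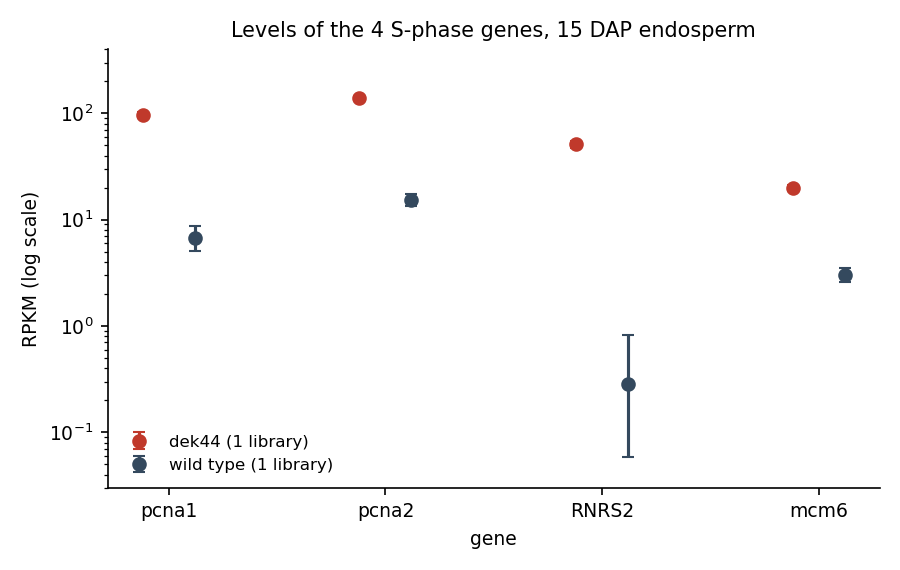
RPKM (log scale) of pcna1, pcna2, RNRS2 and mcm6 in the dek44 library (red, left of each pair) and the wild-type library (dark, right); points are the deposited values of 1 library each and bars the 95% counting intervals. The dek44 value lies above the wild-type value for each gene, and the wild-type value of RNRS2, 0.283 RPKM, has the widest interval.

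Within each library the genes held different places among the 30136 expressed genes. In dek44 93.2% of expressed genes had a lower level than pcna1, against 55.3% in wild type. For pcna2 the shares were 95.2% in dek44 and 73.8% in wild type. For RNRS2 they were 87.1% in dek44 and 6.02% in wild type, the widest move of the 4. For mcm6 they were 70.1% in dek44 and 38.2% in wild type. Ordered by log2 ratio from the highest, RNRS2 was at rank 31, pcna1 at 238, pcna2 at 451 and mcm6 at 1224. These ranks are unaffected by any scaling that moves all log2 ratios by the same amount.

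**Figure D2:**
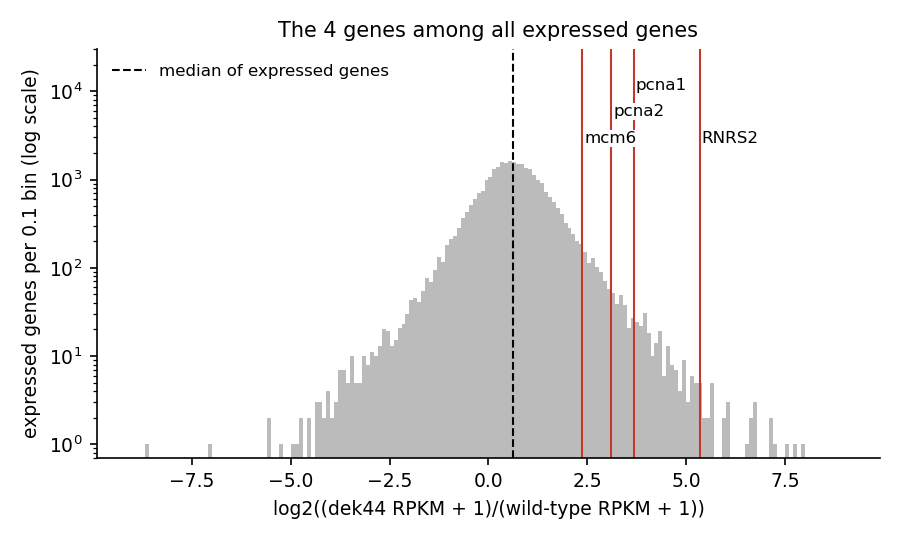
Number of expressed genes (log scale) per 0.1 bin of the log2 ratio on the RPKM plus 1 scale, dek44 over wild type, with red lines at the 4 genes and a dashed line at the median of all expressed genes, 0.62. The red lines, from mcm6 at 2.37 to RNRS2 at 5.34, all lie in the upper tail.

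Ribonucleotide reductase needs a large subunit, which holds the catalytic site, and a small subunit, which supplies the radical for catalysis. The small subunit gene RNRS3 (GRMZM2G323679) had 62.3 RPKM in dek44 and 8.38 RPKM in wild type, 7.43-fold higher (6.35 to 8.73). RNRS1 (GRMZM2G060163) had 44.1 RPKM in dek44 and 6.73 RPKM in wild type, 6.55-fold higher (5.497 to 7.86). RNRS2 therefore stood between them in dek44 but far under both in wild type. It supplied 32.4% of the summed small subunit level in dek44 and 1.83% in wild type.

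Both large subunit genes matched by name had lower levels than any of these small subunit genes in dek44. RNRL2 (GRMZM2G340527) had 10.1 RPKM in dek44 and 1.78 RPKM in wild type, 5.68-fold higher (3.87 to 8.599). RNRL1 (GRMZM2G304378) had 4.16 RPKM in dek44 and 0.159 RPKM in wild type, 26.1-fold higher, with an interval of 8.65 to 129 since the wild-type value corresponds to as few as 3 reads. RNRL1 was 29.1% of the summed large subunit level in dek44 and 8.21% in wild type. In each subunit class, then, the gene that was lowest in wild type had the highest fold. The wild-type level divides the fold, so level and fold are not independent. Both genes had as few as 3 wild-type reads. Summed over the genes matched by name in each class, the small subunits were 10.2-fold higher in dek44 and the large subunits 7.36-fold. The small subunit sum was 11.03 times the large subunit sum in dek44 and 7.94 times in wild type.

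**Figure D3:**
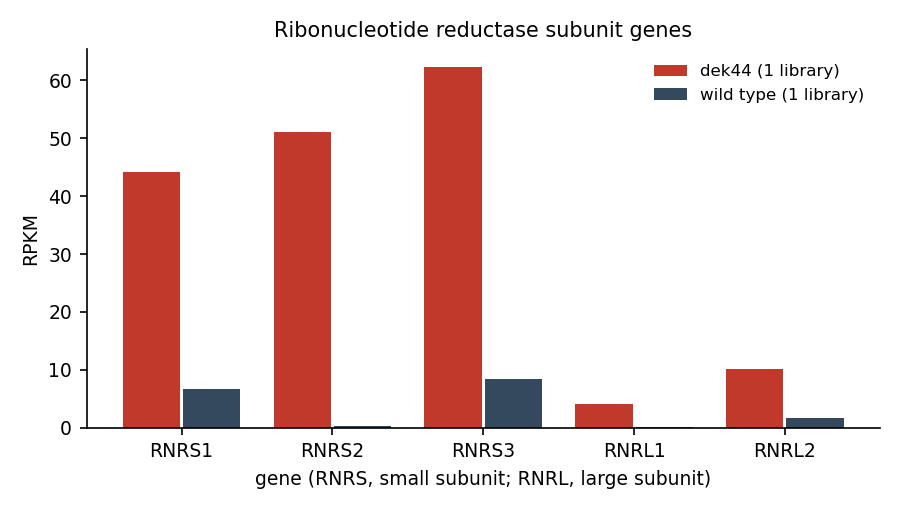
RPKM of the 3 small subunit (RNRS) and 2 large subunit (RNRL) genes of ribonucleotide reductase matched by name, in dek44 (red, left bar) and wild type (dark, right bar), 1 library each. In dek44 RNRS2, at 51.1 RPKM, stands between RNRS1 and RNRS3, while in wild type, at 0.283 RPKM, its bar is barely visible.

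The other genes of replication and the cell cycle were taken from lists matched by gene name, with the 4 genes themselves left out. Only 5.6% of gene models had a name, so unnamed genes of these processes are not counted. Of 45 such genes 44 were expressed, and 33 of them were at least 2-fold higher in dek44, 1 was at least 2-fold lower and 10 were within 2-fold. Their median log2 ratio was 1.87, against 0.62 for all expressed genes. On the centred scale 27 were higher and 1 lower. The shares of all expressed genes beside those counts are 31.6% as deposited and 12.3% centred. The lists were made with earlier results of these data known, and no test was made of them. Nothing here tells fewer or more cells of a type from less or more RNA per cell, since the tissue was measured in bulk.

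Beside RNRS2, the nucleotide supply list held 6 genes. Of them 5 were higher by 2-fold or more (31.6% of all expressed genes) and 0 lower (3.7%). The median log2 ratio was 2.35, and on the centred scale 5 were higher as well (12.3% of all expressed genes). Of these 5, 4 were the reductase genes RNRS1, RNRS3, RNRL1 and RNRL2, and the other was tk1 (GRMZM2G048821), named for thymidine kinase, which salvages thymidine. tk1 had 11.2 RPKM in dek44 and 0.687 RPKM in wild type, 16.3-fold higher (9.14 to 32.04).

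The list of helicase and origin licensing genes, without mcm6, held 6 genes with a median log2 ratio of 1.77, 5 higher by 2-fold or more and 0 lower. On the centred scale 3 were higher and 0 lower. The shares of all expressed genes that were higher are 31.6% as deposited and 12.3% centred. MCM7 (GRMZM2G065205), another subunit of the same helicase ring as mcm6, had 17.3 RPKM in dek44 and 2.97 RPKM in wild type, 5.80-fold higher (4.83 to 7.02). Its levels and fold were close to those of mcm6, whose interval overlaps that of MCM7. SLD5 (GRMZM2G164325), a subunit of the GINS complex that activates the helicase, had 48.7 RPKM in dek44 and 5.90 RPKM in wild type, 8.26-fold higher (6.56 to 10.5).

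Subunits of the origin recognition complex, which marks where replication can start, differed among themselves. orc2 (GRMZM2G117238) was 5.26-fold higher (2.66 to 11.5), orc1 (GRMZM2G455243) 3.47-fold (3.04 to 3.97) and orc3 (GRMZM2G381822) 2.26-fold (2.02 to 2.52). orc4 (GRMZM5G876520) had 33.5 RPKM in dek44 and 27.3 RPKM in wild type, with a fold of 1.23 (0.999 to 1.51). The lower end lies just under 1 at the smallest reads, 222 in dek44 and 167 in wild type. A multiple of these reads would narrow the interval, so whether it includes 1 is not settled. On the centred scale orc3 was at 0.48 and orc4 at -0.34, neither past 2-fold. The recognition complex genes thus had smaller folds than mcm6 and MCM7, with orc2 overlapping both in its wide interval.

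The fork list held only 2 genes, and they went opposite ways. FEN-1 (GRMZM2G121262), the flap endonuclease that trims the primers of Okazaki fragments and binds PCNA, had 65.9 RPKM in dek44 and 26.6 RPKM in wild type, 2.48-fold higher (2.29 to 2.68). Its centred log2 ratio was 0.66, within 2-fold. Top1 (GRMZM2G092451) is named for the topoisomerase that relaxes supercoils in replication and transcription. It had 150.2 RPKM in dek44 and 402 RPKM in wild type, 2.68-fold lower (2.54 to 2.82). Its centred log2 ratio was -2.04.

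Histones package newly made DNA, and most of their transcripts are known to build up in S phase. Of 14 expressed gene models 12 were higher by 2-fold or more and 0 lower, and the median log2 ratio was 1.86. On the centred scale 10 were higher, beside 31.6% of all expressed genes as deposited and 12.3% centred. The histone H4 model GRMZM2G149178 had 283 RPKM in dek44 and 28.4 RPKM in wild type, 9.95-fold higher (7.65 to 13.2). Another H4 model, GRMZM2G084195, had 536 RPKM in dek44 and 56.8 RPKM in wild type, 9.44-fold higher (8.48 to 10.5). The histone H3 gene H3C2 (GRMZM2G401581) was 8.10-fold higher (6.85 to 9.65), and the linker histone gene hon101 (GRMZM2G080274) 5.80-fold (5.23 to 6.44). The third H4 model, GRMZM2G181153, had 144 RPKM in dek44 and 36.96 RPKM in wild type, a smaller fold of 3.88 (3.37 to 4.49). The H4 models thus differed among themselves, with GRMZM2G149178 and GRMZM2G084195 near the 9.13 of pcna2 and GRMZM2G181153 under its interval.

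The 2 histone genes highest by mean RPKM had smaller folds than GRMZM2G149178 and GRMZM2G084195. In dek44 GRMZM2G084195, at 536 RPKM, was nearly as abundant as the lower of them. his2a1 (GRMZM2G305046), a histone H2A gene, had 692 RPKM in dek44 and 198 RPKM in wild type, 3.49-fold higher (3.34 to 3.66). The H2B gene histone2b1 (GRMZM2G071959) had 563 RPKM in dek44 and 286 RPKM in wild type, with a log2 ratio of 0.98, within 2-fold on that scale. The centromeric histone cenH3 matched a pair of gene models with log2 ratios of 0.40 and 1.20, or -0.22 and 0.57 when centred. Histone genes of a class are near-identical, and 3 H4 models share 1 entry in the name table, so single histone values are uncertain.

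Among S-phase regulators 8 of 9 genes were expressed, of which 5 were higher by 2-fold or more and 0 lower. The median log2 ratio was 1.65, and on the centred scale 4 were higher. Of all expressed genes 31.6% were higher as deposited and 12.3% centred. The gene with the name cyclin-A1 (GRMZM2G034647) had 10.2 RPKM in dek44 and 0.358 RPKM in wild type, 28.5-fold higher (15.3 to 60.04). wee1 (GRMZM5G878541), a kinase that inhibits cyclin-dependent kinases, was 5.38-fold higher (3.87 to 7.66), and Rbl1 (GRMZM2G033828, also named rbr3), of the retinoblastoma family, 4.90-fold (4.06 to 5.95). cycD1 (GRMZM2G006721) had 3.83 RPKM in dek44, from as few as 9 reads, and 0 reads in wild type. With 3 reads set as the wild-type library's floor its fold would be 2.77, but its counting interval reaches down to 1.82. The 9 reads go with a recovered length of 104 bases, close to the shortest length the recovery allowed. A multiple of these reads would raise both values, so the size of this change is not settled.

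Other regulators were closer to their wild-type levels as deposited, among them the retinoblastoma genes RBR1 and RBR2, whose products restrain S-phase entry. RBR1 (GRMZM2G003043) had 18.2 RPKM in dek44 and 21.03 RPKM in wild type, a log2 ratio of -0.20, or -0.82 when centred. RBR2 (GRMZM2G153150) had 8.58 RPKM in dek44 and 7.36 RPKM in wild type, a log2 ratio of 0.20, or -0.43 when centred. The abundant D-type cyclin gene cycD2 (GRMZM2G075117) had 64.5 RPKM in dek44 and 38.7 RPKM in wild type, a log2 ratio of 0.72, near the median of all genes. cdc2 (GRMZM2G008327), named for the central cyclin-dependent kinase, was 2.78-fold higher (2.47 to 3.13), with a centred log2 ratio of 0.81. These genes lay well under the folds of the clamp genes.

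A further 7 cyclin genes, named neither as A, B nor D types, had log2 ratios from 0.48 to 3.24. By 2-fold or more 4 were higher and 0 lower, both as deposited and on the centred scale. Among all expressed genes 31.6% and 12.3% were higher on those scales. cyc3 (GRMZM2G073671) had 10.3 RPKM in dek44 and 0.264 RPKM in wild type, and cyclin9 (GRMZM2G017081) 12.1 RPKM in dek44 and 0.392 RPKM in wild type. Their folds were 39.1 (18.8 to 98.2) and 31.0 (17.5 to 60.5), both above the interval of pcna2 and with lower ends under the upper end of pcna1. The mitosis list matched only mad2 (GRMZM2G047143), of the spindle checkpoint, which acts when chromosomes are pulled apart. It had 41.7 RPKM in dek44 and 4.69 RPKM in wild type, 8.89-fold higher (6.82 to 11.8). High folds were therefore also seen for a gene whose known role lies outside S phase.

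**Figure D4:**
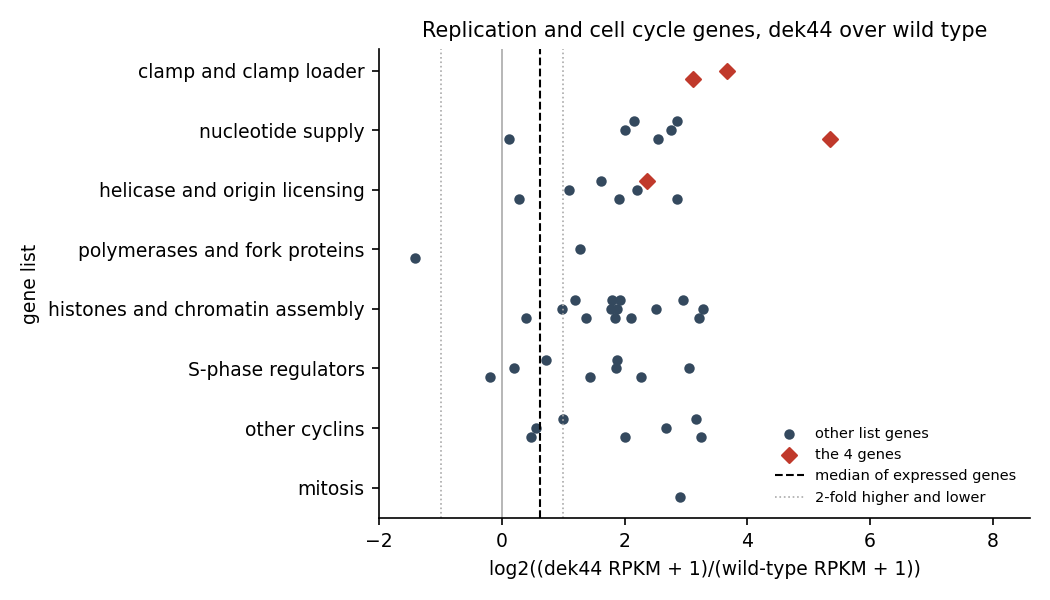
Each point is 1 expressed gene, placed by its log2 ratio on the RPKM plus 1 scale and grouped by list; red diamonds are pcna1, pcna2, RNRS2 and mcm6, dark points the other genes, the dashed line the median of all expressed genes and dotted lines 2-fold. Most points lie to the right of the median, and Top1, at -1.41, is the only point left of the lower dotted line.

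Cell type markers moved in the same comparison. Of all expressed genes 3.7% were at least 2-fold lower in dek44 as deposited and 10.9% centred. Of the starchy endosperm markers, which include zein storage protein genes, 9 of 9 were at least 2-fold lower on both scales. Their summed level was 39102 RPKM in dek44 and 190711 RPKM in wild type. The lowest of them was at 80.7 RPKM in dek44 and 456 RPKM in wild type, so markers of the labelled tissue were present in both libraries. Of 9 basal transfer layer markers 8 were expressed and all 8 were at least 2-fold higher, or 6 on the centred scale, beside 31.6% and 12.3% of all expressed genes. They had a summed level of 3641 RPKM in dek44 and 736 RPKM in wild type. BETL1 (GRMZM2G082785), a defining marker of that layer, was under 1 RPKM in both libraries. The 2 markers of the embryo-surrounding region were both higher by 2-fold or more on either scale and summed to 118 RPKM in dek44 and 8.27 RPKM in wild type. Of 5 embryo markers 1 was higher by 2-fold or more and 0 lower, or 1 and 1 centred, with sums of 508 RPKM in dek44 and 426 RPKM in wild type. Of 5 aleurone markers 4 were expressed and 1 was higher on either scale, with sums of 282 RPKM in dek44 and 146 RPKM in wild type, and c1 was at 0 in wild type. The green tissue markers summed to 0.963 RPKM in dek44 and 0.609 RPKM in wild type. The part of these cell types in the levels of the replication genes was not tested. The zeins, 29 genes by name, took 3.68% of summed RPKM in dek44 and 21.7% in wild type. A zein gene without a matched name would not be among the 29. Both libraries were also scaled to the sum outside these 29. The log2 ratios were then 3.44 for pcna1, 2.88 for pcna2, 5.12 for RNRS2 and 2.15 for mcm6.

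Named genes with the most similar pair of levels were found by Euclidean distance of log2(RPKM + 1) over the 2 libraries. Only 5.6% of gene models had a name. For pcna1, pcna2 and mcm6 the first named gene had 0 genes of any name nearer, and for RNRS2 it had 4. The nearest to pcna2 were gst31 (GRMZM2G475059), a glutathione S-transferase gene at 137 RPKM in dek44 and 15.2 RPKM in wild type, the tubulin gene TUB1 (GRMZM2G164696) and the histone gene H3C2, at distances of 0.027, 0.16 and 0.22. The nearest to pcna1 were thi2 (GRMZM2G074097), at 104.8 RPKM in dek44 and 6.66 RPKM in wild type, cystatin8 (GRMZM2G401374) and BAF60.21 (GRMZM2G524937), at 0.11, 0.13 and 0.41. The nearest to mcm6 were PLD1 (GRMZM2G054559), at 19.8 RPKM in dek44 and 2.93 RPKM in wild type, the tubulin gene tub4 (GRMZM2G066191) and BURP6 (GRMZM2G406170), at 0.033, 0.095 and 0.11. RNRS2 had no named gene as near: HIT2 (GRMZM2G126765), at 46.3 RPKM in dek44 and 0.121 RPKM in wild type, LTP3 (GRMZM2G126397) and expB7 (GRMZM2G342246) were at 0.24, 0.55 and 0.62. With 1 library per genotype these are likenesses of a pair of values. They include genes outside replication for each of the 4.

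Genes near the 4 in gene order had lower log2 ratios than the gene they lie near, though the 4 were chosen with their own ratios known. The order is that of the RefSeq table, where only 40.3% of measured identifiers were matched, so unmatched genes may lie between. The closest matched gene models, 2 on each side of each gene, gave 16 neighbours, of which 14 were expressed. Their log2 ratios ran from -0.87 to 1.70 with a median of 0.58, near the 0.62 of all expressed genes, and 5 were higher by 2-fold or more and 0 lower, beside 31.6% of all expressed genes. All 5 lay beside pcna1, at 1.002, just past 2-fold, and 1.25, or mcm6, at 1.70, 1.42 and 1.23. With 14 expressed neighbours in all, nothing is read from this placement. The expressed neighbours of pcna2 ran from -0.87 to 0.64 and those of RNRS2 from -0.45 to 0.38. The highest, GRMZM2G335377 at 1.70, was under the 2.37 of mcm6 itself.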

How the data were processed

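Total RNA of endosperm at 15 DAP had been sequenced, 1 library for dek44 and 1 for wild type per the labels. The deposited RPKM values are the authors' own; Bowtie 0.12.2 and build B73 RefGen_v3 are named in the submitters' processing notes. No source used here states the counting rule, the strand setting or the gene lengths. Library totals and reads were recovered from the RPKM steps: 39505 of 39505 genes above 0 came out whole, within 0.001 reads plus a relative 1e-06, at a gene length of 100 or more bases. A factor of 2 lost to both totals would leave nearly all recovered lengths even; 47.4% of 371 were, and larger shared factors were not tested. Interval bounds are Poisson for levels and Clopper-Pearson (conditional on the sum) for folds. No test between genotypes was made.

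Names came from the RefSeq table of Zm-B73-REFERENCE-NAM-5.0, another build, used for names and gene order only. Of 41406 identifiers 16689 (40.3%) matched and 2325 (5.6%) had a name, so lists and nearest named genes miss genes without one. Genes carrying krp names (kinesins here) or dp names of unclear meaning were left out of the lists. Genes, lists and rules were chosen with earlier results of these data known; the rule names the 4 genes, up to 4 list genes by ratio and 2 by mean RPKM, and 3 nearest named genes. Further genes were named after their values were seen, mainly RBR1, RBR2, orc3, orc4 and cenH3. Computation used Python 3.11.15, pandas 2.3.3 and scipy 1.17.1. A gene counted in the nucleotide supply list is not reported here by name.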

Additional observations from a re-analysis of the deposited data

How the results depend on the processing

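The direction of all 4 genes and their side of the 2-fold threshold held under every setting run, with log2 ratios given here in the order pcna1, pcna2, RNRS2 and mcm6. They were 3.12, 2.83, 3.41 and 1.63 with a pseudocount of 5. With a pseudocount of 0.1 RNRS2 was at 7.06 and mcm6 at 2.67, and as plain ratios at 7.50 and 2.71, since the added 1 weighs most on low levels; both clamp genes stayed within their counting intervals there. Centring on the median ratio gave 3.05, 2.49, 4.72 and 1.74, centring on a trimmed mean gave 3.04, 2.48, 4.72 and 1.74, and scaling by all but the 100 most abundant genes gave 3.05, 2.49, 4.73 and 1.78. Scaled to the sum outside zeins, pcna2 was at 2.88 and mcm6 at 2.15, outside their counting intervals. Without zeins in the denominator the 4 genes held 0.0241% of summed RPKM in dek44 and 0.00233% in wild type.

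Of all expressed genes, 9529 higher and 1116 lower as reported, 4192 and 543 passed with a pseudocount of 5, 2084 and 260 at 4-fold, 3703 and 3284 centred on the median, 3667 and 3304 centred on the trimmed mean, and 4290 and 2513 scaled by all but the 100 most abundant genes. The higher genes were 89.5% of those past 2-fold as reported, 53.0%, 52.6% and 63.1% under those last 3 scalings. Of the listed genes outside the 4, 17 of the 33 reached 4-fold, and 6 of the 11 for helicase, fork and nucleotide genes; other settings kept these counts within 1.5 times. No paired analysis was possible because there is 1 library per genotype, so leaving out replicates and limma were not run. The wild-type depth limits the folds of RNRS2 and RNRL1, at as few as 3 reads each, and of cycD1, at 0 reads. Protein relatedness was not run, as no protein table was used here.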
